A study of Mus musculus with 7 samples.

Results

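Zeb2 and Zeb1 are the mouse genes of a pair of paralogous transcription factors, each with zinc fingers at both ends and a homeodomain between them. The data are lists of peaks of histone H3 methylated at lysine 4, so each gene is described here by the called intervals that overlap it or lie near it. An interval counted if it overlapped Zeb2 or lay within 300 kb of it, or overlapped Zeb1 or lay within 100 kb of it, by the mm10 gene bounds. This gave 71 of the 106152 distinct intervals in the 5 lists used, 42 at Zeb2 and 29 at Zeb1. Merging intervals that touch or overlap across lists turned them into 27 of 41235 regions, 15 at Zeb2 and 12 at Zeb1.

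The cells were common monocyte progenitors (cMoPs) sorted from bone marrow of mice, with no strain or age given in the labels. Mice labelled DE and mice labelled WT carried different forms of an enhancer placed at -165 kb of Zeb2, and the meaning of DE is not spelled out. H3K4me2, a mark of promoters and enhancers, was profiled in 2 DE and 2 WT libraries of batch 2. H3K4me3, a mark that peaks at active promoters, was profiled in 1 WT library of batch 1, so for this mark the mark and the batch cannot be told apart. The assay, CUTAC, tethers a transposase to the antibody-bound mark and cuts open DNA beside it. Nothing in the labels says whether the libraries of a genotype came from separate mice, so p-values measure the spread between these libraries, which may be technical.

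ZEB factors bind paired E-box motifs of the form CACCTG and mostly repress transcription with the help of CTBP corepressors. In epithelial cells they repress E-cadherin and are held down by the miR-200 family of microRNAs, which they repress in turn. In the mouse myeloid lineage, Zeb2 favours monocytes and plasmacytoid dendritic cells over type 1 conventional dendritic cells, and ID2, an inhibitor of E proteins, works against its expression. Zeb1 is best known from epithelial, neural and T cells.

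The lists held 22013 and 17103 peaks in DE replicates 1 and 2, against 32411 and 28198 in WT replicates 1 and 2, and 6427 for H3K4me3. The track line of the DE replicate 1 list carries the name of DE replicate 2, and its sample was taken from the series record. The lists give no read totals. Relative depth was therefore worked out from the values at the summits, against one background library. It was 1.2 and 1.47 in DE, against 0.477 and 1.04 in WT, and 3.81 for H3K4me3. Gene ends (within 1 kb of either bound) of all 6 monocyte progenitor markers tested, among them Csf1r and Mpo, were called in all 4 H3K4me2 lists, as were those of 39.1% of protein-coding autosomal genes. Flt3 and Xcr1 of the 3 dendritic cell markers were called in all 4 too, and none of the 3 B cell, 2 T cell, 3 erythroid and 3 neutrophil markers was. Of these, the erythroid factor gene Klf1 had gene-end calls in both DE lists and neither WT list. This was a pattern of 0.223% of genes. The B cell gene Cd79a had a gene-end call in DE replicate 1 alone and the neutrophil gene Ltf in WT replicate 1 alone. Over the gene and 5 kb around it, Klf1 had 2 and 3 regions in DE, against 2 and 2 in WT. Cd79a had 2 and 1 in DE, against 3 and 2 in WT, and Ltf had 0 and 0 in DE, against 1 and 0 in WT. The DE-only pattern of Klf1 therefore held at the gene ends and not over the wider window. The part of these marker genes in the results was not tested.

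Zeb2 (gene ID 24136) spans chr2:44983512-45117442 on the minus strand, so it is read from its upper bound downward, and RefSeq lists starts at 45117442, 45113279, 45113253 and 45110277. The 3 windows below run from 250 bases before to 50 bases after a start (RefSeq, GRCm38.p6, minus strand, 5′ to 3′). They are shown because H3K4me2 was called close to all of these starts and H3K4me3 only at the inner ones. Capitals mark CG pairs, whose density is high in the promoters called CpG islands.

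Zeb2 outermost start, chr2:45117393-45117692: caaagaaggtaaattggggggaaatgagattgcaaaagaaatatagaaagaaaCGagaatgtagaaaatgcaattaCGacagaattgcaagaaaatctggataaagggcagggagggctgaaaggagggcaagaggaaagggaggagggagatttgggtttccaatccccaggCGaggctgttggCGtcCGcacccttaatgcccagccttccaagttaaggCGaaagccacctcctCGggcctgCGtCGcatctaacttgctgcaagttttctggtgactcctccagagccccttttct
Zeb2 middle start, chr2:45113204-45113503: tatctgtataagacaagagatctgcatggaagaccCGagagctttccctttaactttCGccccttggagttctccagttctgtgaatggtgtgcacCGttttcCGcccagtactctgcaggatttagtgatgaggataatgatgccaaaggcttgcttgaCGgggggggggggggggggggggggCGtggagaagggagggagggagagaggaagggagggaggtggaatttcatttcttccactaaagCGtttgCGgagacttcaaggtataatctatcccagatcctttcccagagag
Zeb2 innermost start, chr2:45110228-45110527: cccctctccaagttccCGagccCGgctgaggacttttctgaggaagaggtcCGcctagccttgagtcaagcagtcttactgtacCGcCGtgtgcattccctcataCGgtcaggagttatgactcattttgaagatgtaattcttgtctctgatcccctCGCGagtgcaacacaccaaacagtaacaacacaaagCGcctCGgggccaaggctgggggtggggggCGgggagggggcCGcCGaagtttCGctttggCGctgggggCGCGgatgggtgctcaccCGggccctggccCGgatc

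The innermost window held 19 CG pairs and 60.7% G and C, the middle one 8 pairs and 52.7%, and the outermost 9 pairs and 49.3%. The median of 32851 mouse promoter windows was 7 pairs and 52.7%, and 28.1% of windows held at least 19 pairs. The fourth window, at the start at 45113279, lies 26 bases from the middle one and also held 8 pairs. The motifs CACCTG and CAGCTG (E-boxes), CANNTG (any E-box, which contains both), TTGCNNAA (C/EBP) and GGAAGT (ETS) were searched on both strands. The only match in the 4 windows was TTGCAAAA, whose first base lies 221 bases before the outermost start. Among all windows CACCTG occurred in 20.2%, CAGCTG in 16.3%, CANNTG in 72.3%, TTGCNNAA in 10.8% and GGAAGT in 23.8%.

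H3K4me3 was called at Zeb2 and not at Zeb1. Zeb2 had 6 H3K4me3 regions, all inside the gene between 45108623 and 45113208, and Zeb1 had 0 in its whole window. Of 20665 protein-coding autosomal genes, 0.126% had at least as many H3K4me3 regions within 5 kb as Zeb2. Among the 5456 genes with any H3K4me3 region within 5 kb the share was 0.477%. Merging within 500 bp left 4 regions at Zeb2, so the number depends on how the block was split. The list holds 1 library, so there is no replicate check.

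The tallest of the 6, chr2:45111787-45112321, lay in Zeb2 and in its antisense lncRNA gene Zeb2os (chr2:45111138-45114087) and held 144 fragments at its summit, a number inferred from the deposited fold and p. Of 5786 H3K4me3 regions, 2.37% reached as many, and the median was 61. The regions at 45110115-45110522, over the innermost start, and at 45111052-45111414 held 76 and 75 fragments. The region beside the middle start (45112993-45113208) held 63, and the pair farthest into the gene, at 45108623-45108927 and 45109164-45109487, held 40 and 27. So the signal was highest between the middle and the innermost start and lower on both sides. Zeb2os overlaps 3 of the 6 regions, and these reads cannot be assigned to one of the overlapping genes.

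No H3K4me3 interval lay within 1 kb of the outermost Zeb2 start, although H3K4me2 was called there in all 4 libraries. Among 291 genes with a start over 2 kb inside the outermost one and H3K4me3 within 1 kb of any start, 23.0% had it at an inner start and not at the outermost. H3K4me2 was also called over most of the block. It was called in all 4 libraries at 4 of the 6 H3K4me3 regions and in both DE libraries and WT replicate 2 at the tallest one. The region at 45109164-45109487 was called for H3K4me3 alone.

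**Figure D1:**
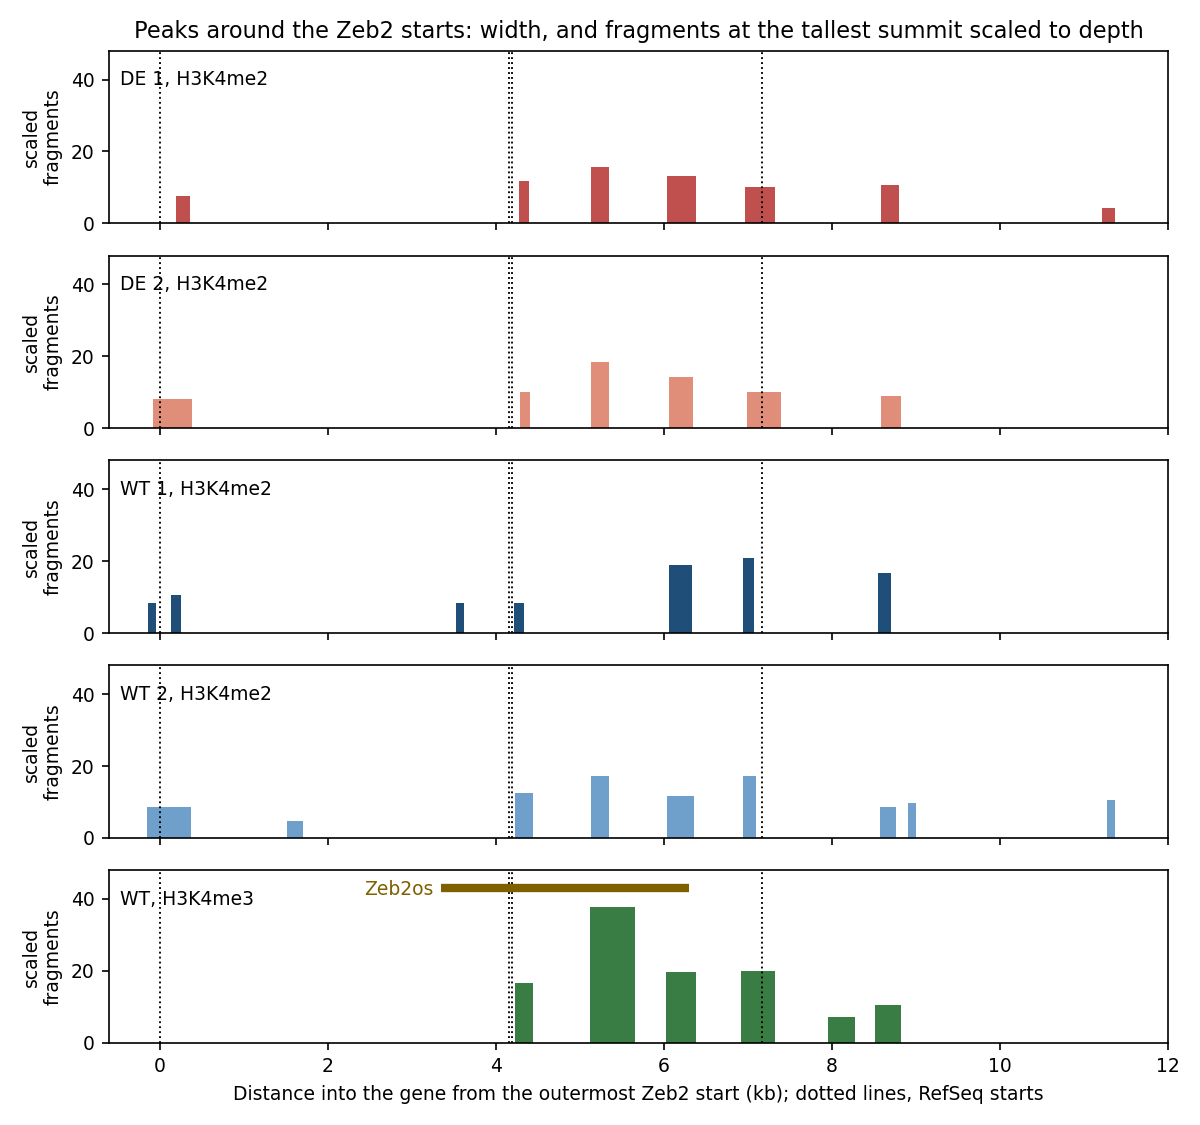
Called intervals over the first 12 kb of Zeb2, by distance into the gene from the outermost start in kb, in DE and then WT libraries for H3K4me2 and in the WT library for H3K4me3. Bar width is the interval, bar height the fragments at its tallest summit divided by relative depth, and dotted lines mark the RefSeq starts; the H3K4me3 bars begin beyond 4 kb and reach 37.8, while H3K4me2 bars also stand at the outermost start.

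At single H3K4me2 regions the values were small counts. At the outermost start (chr2:45117052-45117587) the tallest summit held 9 and 12 fragments in DE, against 5 and 9 in WT. Divided by relative depth these were 7.51 and 8.15 in DE and 10.5 and 8.67 in WT. Both DE libraries lay below both WT libraries there (exact two-sided permutation test, p = 0.333, the smallest that 2 libraries against 2 can give), as they did in 72.5% of 11631 autosomal regions with a height in all 4 libraries.

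At the innermost start (chr2:45110049-45110522) the depth-scaled height was 10 and 10.2 in DE, against 21 and 17.3 in WT. Here too both DE libraries were lower (exact permutation p = 0.333). The interval was 362 and 407 bp wide in DE, against 124 and 156 bp in WT, so the DE intervals were wider and lower. Over the whole lists, the median interval was also wider in both DE lists than in both WT lists. The direction of the width contrast was therefore not particular to this start. In DE replicate 2 the tallest of its 3 summits lay at 45110206 and in WT replicate 2 the summit lay at 45110413.

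Beside the middle start (chr2:45112993-45113224) the height was 11.7 and 10.2 in DE, against 8.39 and 12.5 in WT, with overlapping groups. At chr2:45111052-45111414 it was 13.3 and 14.3 in DE, against 18.9 and 11.6 in WT, and at chr2:45108623-45108927 it was 10.8 and 8.83 in DE, against 16.8 and 8.67 in WT. In both regions WT replicate 1 was the highest library and WT replicate 2 the lowest. The tallest H3K4me3 region had 15.8 and 18.3 in DE, against 17.3 in WT replicate 2 and no call in WT replicate 1, the shallowest library.

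Outside the gene, one Zeb2 region was called in all 4 libraries, at chr2:44926911-44927585. It lies at an end of Gtdc1, a glycosyltransferase-like gene and the only other protein-coding gene in the window. Its height was 47.5 and 31.9 in DE, against 48.3 and 49.1 in WT, with DE replicate 2 well below the other 3. It was the tallest of the H3K4me2 regions of both genes and had no H3K4me3 call. Its fold over local background at the summit with the strongest p was 5.39 and 2.99 in DE, against 4.99 and 5.57 in WT. The fold at the innermost Zeb2 start was higher, at 7.66 and 6.84 in DE, against 9.63 and 13.4 in WT.

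The other H3K4me2 regions of Zeb2 were called in fewer libraries and held small counts, but not all were weaker than the constant ones. In WT replicate 2 the fold was 7.17 at chr2:44981726-44981879, 8.6 at chr2:45106069-45106220 and 7.88 at chr2:45108436-45108539. It was 4.31 at chr2:45115740-45115919, against 4.83 at the outermost start in the same library. The region at chr2:45106069-45106220 was called in DE replicate 1, with 5 fragments, and in WT replicate 2, with 11. A further 3 regions were called in WT replicate 1 alone, with 3 to 5 fragments, and 3 in WT replicate 2 alone, with 5 to 10. None was called in DE alone.

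Zeb1 (gene ID 21417) spans chr18:5591327-5775468, and 2 of its 12 regions were called in all 4 H3K4me2 libraries. The first, chr18:5591262-5592203, covers the lower gene bound and lies within the lncRNA gene Gm10125, so its signal cannot be assigned to one of the overlapping genes. Its tallest summit held 35 and 36 fragments in DE, against 6 and 16 in WT. The depth-scaled heights were 29.2 and 24.5 in DE and 12.6 and 15.4 in WT, with means of 26.8 ± 3.35 in DE and 14 ± 2 in WT (SD, n = 2 each).

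This gave a ratio of DE to WT means of 1.92, with both DE libraries above both WT libraries, as in 0.894% of those autosomal regions. The difference was 12.8 depth-scaled fragments (exact two-sided permutation test over 6 assignments, p = 0.333). The deposited fold over local background ran the other way, lower in both DE than in both WT libraries. At the summit with the strongest p it was 5.03 and 4.24 in DE, against 5.17 and 6.25 in WT. The further intervals of WT replicate 1 had a fold of 4.95, below that of DE replicate 1. In WT replicate 2 that summit, at 5591956, held 9 fragments and was not the tallest one, at 5591743. Fold and height are therefore not read at the same position in that library. The region was singled out after its value was seen among the 8 regions with a height in every library. Its calls were also shaped differently, as 1 interval of 700 and 656 bp in each DE library, against 3 short intervals in WT replicate 1 and 2 intervals in WT replicate 2. Wider DE intervals were also found over the whole lists, by the median interval of each list. No interval of WT replicate 1 covered the DE summit positions, 5591738 and 5591725. The local background inferred at the tallest summits was 5 and 5 in DE, against 0.743 and 3 in WT, on the same depth scale as the heights, and its part in the difference was not tested.

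The second constant Zeb1 region, chr18:5592733-5592932, showed no such split. Its height was 11.7 and 15.6 in DE, against 21 and 11.6 in WT, and the groups overlapped. The next region into the gene, chr18:5593163-5593383, was called in DE replicate 1, with 10 fragments, and WT replicate 1, with 6.

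Within Zeb1, the regions at chr18:5603481-5603748 and chr18:5751181-5751316 were present in both WT lists and absent from both DE lists. The first held 6 and 13 fragments in WT and the second 3 and 7. Across the genome, 8.78% of 39375 autosomal H3K4me2 regions had that pattern, against 2 of 12 at Zeb1 and 0 of 14 at Zeb2. The reverse pattern, both DE and neither WT library, occurred in 0 regions of either gene and in 1.09% of all regions. Taking 1 or both WT lists and neither DE list, there were 6 of 14 at Zeb2 and 7 of 12 at Zeb1, against 41.3% of all regions. The reverse held for 0 and 1 region, against 11.0%.

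Beyond the upper bound of Zeb1, the widest region of both genes, chr18:5788940-5790414, was called in DE replicate 1 and in both WT libraries. It lies 13.5 kb from the gene in no annotated gene. Its tallest summits held 8 fragments in DE replicate 1, against 4 and 8 in WT. The remaining 6 Zeb1 regions were each called in a single library, 5 in WT replicate 1, with 4 to 8 fragments, and 1 in DE replicate 1, with 5.

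**Figure D2:**
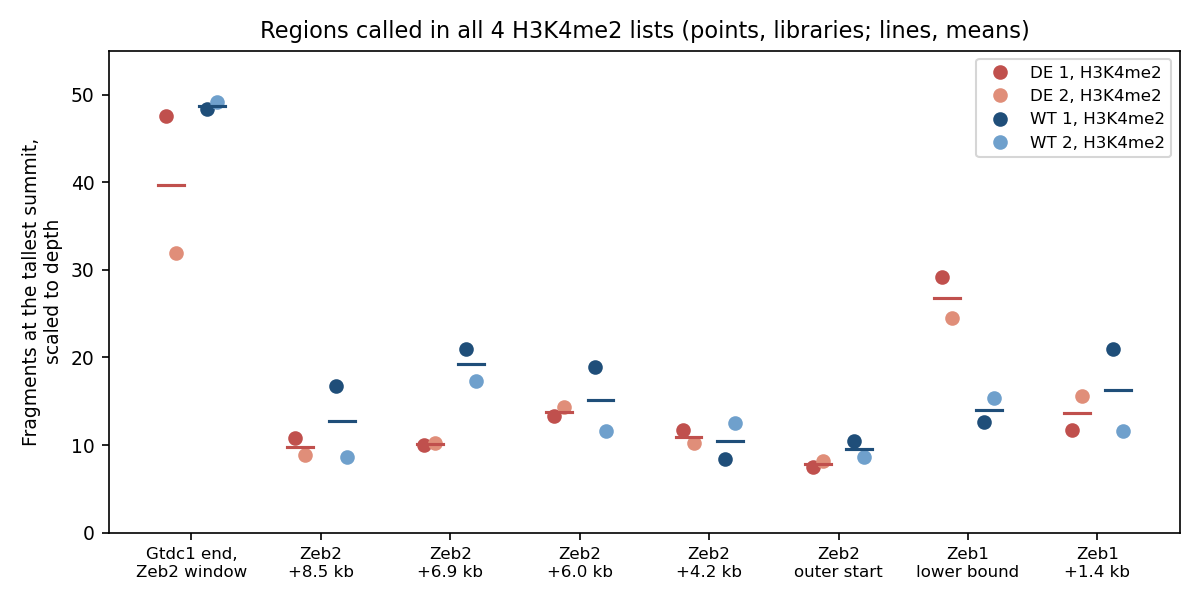
Depth-scaled fragments at the tallest summit of the 8 regions called in all 4 H3K4me2 libraries, 6 at Zeb2 and 2 at Zeb1, with DE libraries left of WT libraries. The Zeb1 region at the gene bound is the one where both DE libraries, 29.2 and 24.5, stand above both WT libraries, 12.6 and 15.4.

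The 8 regions were read against all 11631 autosomal regions called in all 4 libraries and with a height in each, a comparison added after the lists were examined. The median ratio of DE to WT was 0.65 over these regions, with 0.43 and 1 as the 5% and 95% points. The ratios at Zeb2 were 0.527 at the innermost start, 0.773, 0.816 at Gtdc1, 0.817 at the outermost start, 0.907 and 1.05 beside the middle start. At Zeb1 they were 1.92 at the gene bound and 0.839.

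Between the 5% and 95% points lay 6 of the 8, 5 of them above the genome's median. The region beside the middle Zeb2 start and the Zeb1 gene-bound region lay above the 95% point, and 3.89% of regions had a higher ratio than the first. The region beside the middle start had a mean height of 10.7. Among regions with a mean height below 20 the 95% point was 1.12, above its ratio of 1.05, and 7.94% had a higher ratio. Heights were lower in both DE than in both WT libraries in 72.5% of all regions and in 3 of the 6 at Zeb2. They were higher in both DE libraries in 0.894% of all regions, in 1.99% of the 4369 regions with a mean height below 20, and in 1 of the 2 at Zeb1. That Zeb1 region had a mean height of 20.4 and so was not among the weaker regions, those below 20. Among those weaker regions, 58.4% were lower in both DE libraries. A ratio above that of the Zeb1 gene-bound region occurred in 0.0258% of regions. The shortest interval, taken as the fragment length used by the caller, was 109 bp in both DE lists, against 74 and 91 bp in WT, and its part in these heights was not tested.

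**Figure D3:**
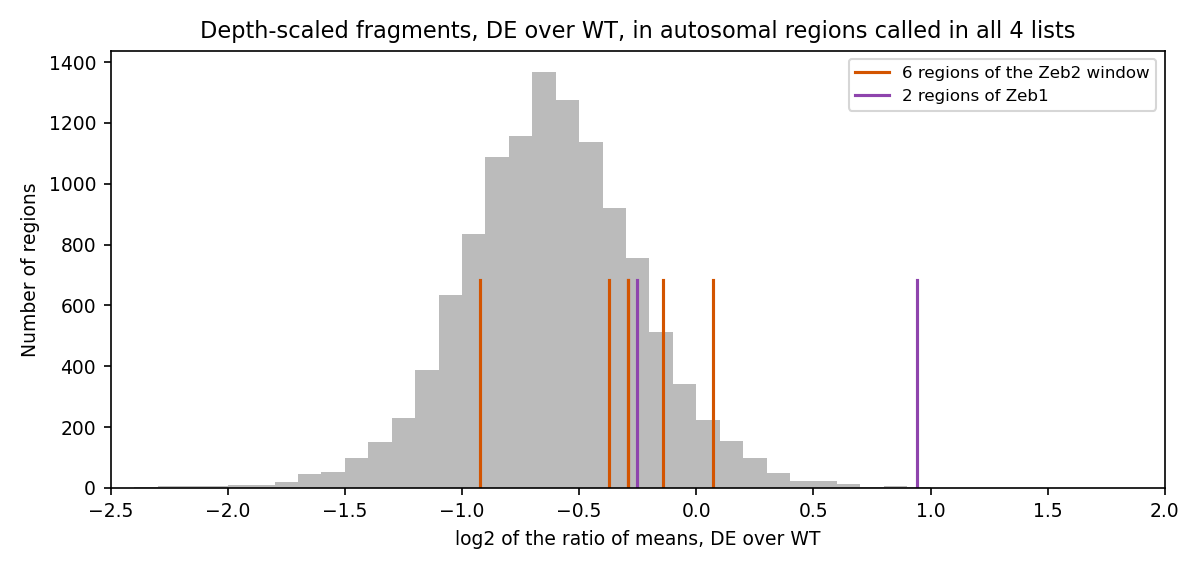
Histogram of the ratio of DE to WT mean height, on a log2 axis, over 11631 autosomal regions called in all 4 H3K4me2 libraries, with lines for the members at Zeb2 and Zeb1; the lines at 0.816 and 0.817 overlap. The Zeb2 lines lie between 0.527 and 1.05, around and above the median of 0.65, and one Zeb1 line stands apart at 1.92.

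Counted as regions, Zeb2 had 8 and 7 called in DE, against 9 and 11 in WT. The means were 7.5 ± 0.707 in DE and 10 ± 1.41 in WT (SD, n = 2 each), a difference of -2.5 (exact two-sided permutation test, p = 0.333). Zeb1 had 5 and 2 in DE, against 11 and 5 in WT, with means of 3.5 ± 2.12 and 8 ± 4.24 (SD, n = 2 each; difference -4.5, exact permutation p = 0.667). DE replicate 1 and WT replicate 2 tied at Zeb1, while the groups did not overlap at Zeb2. The ratio of DE to WT means was 0.75 at Zeb2 and 0.438 at Zeb1, against 0.645 for the intervals of the whole lists. Of all autosomal H3K4me2 regions, 52.4% and 40.3% were called in DE, against 71.4% and 65.4% in WT. At Zeb2 the difference was -1.5 without WT replicate 2, -1 at a −log10 q of at least 5 and 0 with lists cut to equal length. At Zeb1 it was -1.5 without WT replicate 1, the library with most calls, and -7.5 without WT replicate 2, and it turned to 0.5 with the equal-length lists.

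For bases under peaks the ratio of DE to WT means was 0.907 at Zeb2 and 0.742 at Zeb1, against 0.867 for the whole lists. At Zeb2 they were 2132 and 1937 in DE, against 1705 and 2779 in WT (difference of means -208, exact permutation p = 1). At Zeb1 they were 2284 and 780 in DE, against 2190 and 1937 in WT (difference -532, exact permutation p = 1). The groups overlapped at both genes, and the direction at Zeb2 turned without WT replicate 2, to 330, and at Zeb1 without DE replicate 2, to 220. Lists cut to equal length also turned both differences, to 404 at Zeb2 and 908 at Zeb1.

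Constancy of the calls was compared between the genes without a test, since regions of one gene are not replicates. At Zeb2, 6 of 14 H3K4me2 regions (42.9%, 95% Wilson interval 21.4% to 67.4%) were called in all 4 libraries, and 6 in a single one. At Zeb1 these were 2 of 12 (16.7%, 4.7% to 44.8%) and 6. The difference of 26.2 percentage points had an interval of -9.21 to 53.5, which covers counting error only and takes regions as independent. Of the 6 constant Zeb2 regions, 5 lay close together around its starts, and both constant Zeb1 regions lay near its lower bound. Neighbouring regions may share calls, so the interval may be too narrow. Over all autosomal H3K4me2 regions, 30.2% were called in all 4 libraries and 42.5% in one. Of the regions called in all 4, H3K4me3 was called at 38.9% across the genome, at 4 of 6 for Zeb2 and at 0 of 2 for Zeb1.

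Calls of H3K4me2 without H3K4me3, as at Zeb1, were common. Of 4143 genes with at least 2 regions within 5 kb in each H3K4me2 list, 36.2% had no H3K4me3 there. Of 8072 genes with a gene-end call in all 4 H3K4me2 lists, 51.0% had a gene-end H3K4me3 call.

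The windows had unequal flanks, 300 kb at Zeb2 and 100 kb at Zeb1. In regions per 100 kb of window, Zeb2 minus Zeb1 was -0.212 and 0.433 in DE, against -1.64 and 0.197 in WT. The mean of -0.305 had an exact two-sided sign-flip permutation p of 0.75, and without WT replicate 1 the mean was 0.14. Within the gene bounds alone, Zeb2 was denser in 4 of 4 libraries, by 2.92 regions per 100 kb on average. In the exact sign-flip permutation test 2 of 16 assignments were as extreme, the fewest that 4 libraries allow. Zeb2 there had 5.23 and 4.48 regions per 100 kb in DE and 4.48 and 6.72 in WT, and Zeb1 had 1.63 and 1.09 in DE and 4.34 and 2.17 in WT. With 100 kb around both genes the mean difference was 1.05. With the flanks as at first it also turned positive at a −log10 q of at least 5 (0.229), with lists of equal length (0.3) and with merging within 500 bp (0.0798).

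**Figure D4:**
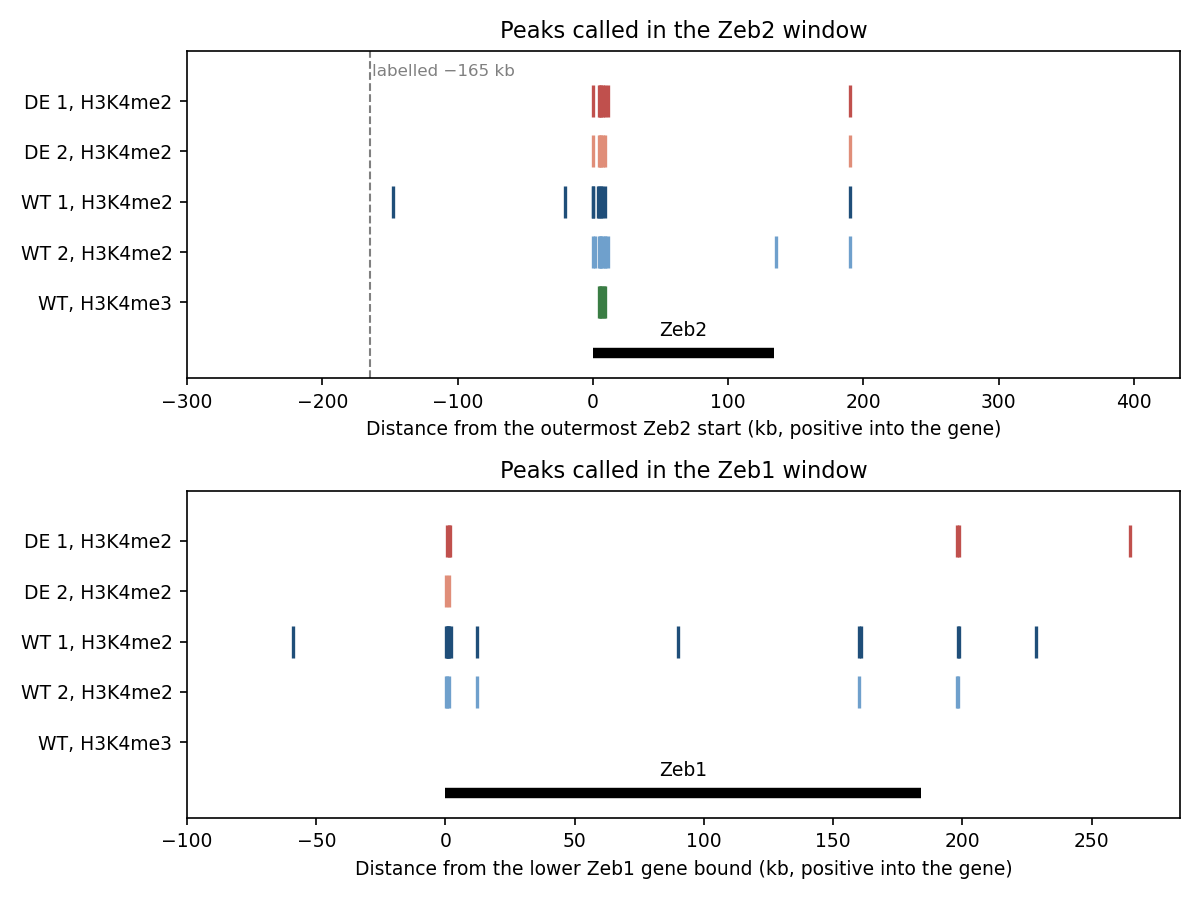
Called intervals of each list across the windows of Zeb2 (300 kb on both sides) and Zeb1 (100 kb on both sides), in kb from the gene, with DE rows above WT rows and H3K4me3 last. Calls gather at the start region of Zeb2 and at the lower bound of Zeb1, further Zeb1 calls lie inside the gene and above it, and no call lies within 5 kb of the labelled -165 kb, counted from the outermost Zeb2 start.

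Counted from the outermost Zeb2 start, the labelled -165 kb falls at chr2:45282442. Which base the labelled distance counts from is not given, and no sequence of the enhancer was used here. No interval of any of the 5 lists lay within 5 kb of this point, or of the points counted from the other 3 starts. Of 16457 genes, 18.8% had a call in any of the 5 lists within 5 kb of the point at the same distance upstream.

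The nearest call in WT replicate 1, chr2:45264846-45264926, lay 17.5 kb below the point and held 5 fragments. It falls in Vis1 (chr2:45238980-45282913), annotated as a miscellaneous RNA gene. The nearest calls of the other lists were 137996 and 164921 bp away in DE, 164855 bp in WT replicate 2 and 169234 bp for H3K4me3. Within 20 kb, 47.4% of genes had a call in any list.

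The stretch without a call that holds the point was 303 and 1164 kb long in DE, against 156 and 813 kb in WT, and 3836 kb for H3K4me3. In DE 9.31% and 2.4% of the stretches between calls in the same list were at least as long, against 13.6% and 1.98% in WT. The share was 1.98% for H3K4me3. A given point falls more often in a long stretch than in a short one. These shares of stretches therefore do not give how often a point would lie in one as long. The longest of the 4 H3K4me2 stretches was in DE replicate 2, and the groups overlapped.

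Genes linked to ZEB factors were counted by calls within 1 kb of either gene end, a count in which 39.1% of protein-coding autosomal genes were called in all 4 H3K4me2 libraries. Of 10 genes of upstream regulators, 8 were called in all 4 libraries and 6 for H3K4me3, against 21.6% of genes for H3K4me3. Id2, Cebpa, Cebpb, the E protein genes Tcf3, Tcf4 and Tcf12, Irf8 and Spi1 were the 8. Nfil3, a repressor upstream of Zeb2 in dendritic cell precursors, had no gene-end call in WT replicate 1, and Runx1 had none in DE replicate 1. Over the gene and 5 kb around it, Nfil3 had 6 regions in WT replicate 1 and Runx1 had 6 in DE replicate 1.

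Of 13 corepressor and partner genes, 8 were called in all 4 libraries, among them Ctbp2, Chd4, Hdac1, Hdac2 and Smad4. Kat2b, an acetyltransferase, and Kdm1a, which removes methyl groups from H3K4, had gene-end calls in both WT lists and neither DE list. This was a pattern of 3.03% of genes. Counted over the whole gene and 5 kb around it, Kat2b had 3 and 3 regions in DE, against 5 and 5 in WT. Kdm1a had 0 and 0 in DE, against 1 and 1 in WT. Mta1, a subunit of the NuRD complex, had a gene-end call in both DE and neither WT library, a pattern of 0.223% of genes. Over the gene and 5 kb around it, Mta1 had 1 and 1 regions in DE, against 1 and 2 in WT. Ctbp1 and Smad1 had no gene-end call in DE replicate 2. Smad1 had 3 regions there over the gene and 5 kb around it, and Ctbp1 had 0.

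Of 9 genes repressed by or opposed to ZEB factors, 5 had no gene-end call in any H3K4me2 list, against 46.2% of protein-coding autosomal genes. These 5 are the short miR-200 genes, which lie in clusters on chromosomes 4 and 6 and so are not independent, and the other 4 genes were each called in at least 1 list. The share of 46.2% is for protein-coding genes and so is not a like measure for these microRNA genes. Of the 9, only Id2 was called in all 4 libraries and none had H3K4me3. Cdh1, the E-cadherin gene, had gene-end calls in both DE libraries and in WT replicate 2, and Epcam in WT replicate 1 alone. In WT replicate 1, Cdh1 had 2 regions over the gene and 5 kb around it. Batf3, a factor of type 1 conventional dendritic cells, had calls in both WT lists alone.

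The 5 genes of the miR-200 family had no call within 1 kb in any of the 5 lists, and their nearest calls lay 2.74 to 13.7 kb away. Their 2 seed types are shown by 1 member each, since these are the microRNAs known to target ZEB transcripts (RefSeq, GRCm38.p6, capitals mark bases 2 to 8).

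mmu-miR-200b-3p: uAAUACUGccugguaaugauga
mmu-miR-200a-3p: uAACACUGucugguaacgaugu

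The seed AAUACUG is shared by miR-200b, miR-200c and miR-429, and AACACUG by miR-200a and miR-141. Of the 5 other factors of epithelial-mesenchymal transition, Snai1 and Snai3 were called in all 4 libraries, Twist2 in DE replicate 1 alone, and Snai2 and Twist1 in none. None of these 5 had an H3K4me3 call at a gene end.

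The genes most like Zeb2 were sought by the sum of absolute differences in the number of regions within 5 kb over the 5 lists. Zeb2 itself had 7 and 6 regions in DE, against 6 and 10 in WT, and 6 for H3K4me3. Ppp1r18 came nearest with a sum of 3, followed by Atp5b with 4, and by Trip4, Baz2a and Mast3 from 10 genes tied at 5. Zeb1 had 3 and 2 regions in DE, against 8 and 4 in WT, and 0 for H3K4me3. Acoxl and Srgn came nearest with a sum of 2, followed by Armh3, Ncoa1 and Gbe1 from 31 genes tied at 3.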

How the data were processed

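CUTAC libraries were sequenced as pairs of 150 bp reads, per the labels' protocols, and 5 of the 7 labelled samples had a peak list. The MDP H3K4me3 and the IgG libraries were not analysed here. MACS2 2.2.9.1, the mm10 build, Bowtie2, Trimmomatic, Picard and SAMtools are named in the submitters' processing notes. Their settings, and whether a control was used, are not stated in the labels or headers. Peaks were called per library. Each deposited entry gives a score (the −log10 q times 10, without decimals), a fold of pileup over local background (a ratio), the −log10 of p and of q, and the offset of the summit. These are the authors' values per peak. The lowest −log10 q in a list was 1.00 to 1.02. The track line of the DE replicate 1 list names DE replicate 2; its sample follows the series record.

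Entries with the same interval were counted as 1 peak. Regions are the merged union of all 5 lists, and 1 shared bp made a region called in that list. Bounds came from RefSeq, GRCm38.p6, and positions count from 1. Fragments at a summit were solved from the p, taken for a Poisson tail, and the fold, taken for (pileup + 1) / (background + 1). No header records this, so it is an inference. The weight of 1 fragment was chosen so that sampled summits came out as whole multiples within 0.01, which is therefore no independent check. More than 1 fragment number fitted at 4.25% to 18.9% of sampled summits, most often for H3K4me3. Depth is relative to one background library. Heights are fragments at the tallest summit over relative depth. Reads may be PCR copies and neighbouring regions may share calls, so intervals cover only the counting error of independent regions.

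Genotypes were compared by exact two-sided permutation over 6 assignments (smallest p 0.333), and genes within libraries by sign-flips (smallest p 0.125), with Python 3.11.15 and SciPy 1.17.1. The difference of 2 shares has a Newcombe interval from Wilson limits. The code was tested on simulated data. The members and lists were chosen with earlier results of these data known. Regions were all named, likeness was ranked over 5 genes with ties by gene length, and linked genes followed fixed lists. The comparison of heights, the regions below a mean of 20, the shares of genes at starts and gaps, and the marking of CG pairs were added after the data were examined. Other settings tried were lists of equal length, a stricter −log10 q (5 or more), 50% of a region covered, merging within 500 bp, other windows, a block on the replicate number, and each library left out in turn.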

Additional observations from a re-analysis of the deposited data

How the results depend on the processing

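The count of Zeb2 regions kept its direction (DE lower) or came to 0, with lists of equal length, under all 13 alternatives, and 2 libraries against 2 cannot give a p below 0.333 in any genotype test. Leaving out 1 replicate gave -3.5 to -1.5 for Zeb2 regions, -744 to 330 for Zeb2 bases, -7.5 to -1.5 for Zeb1 regions and -1284 to 220 for Zeb1 bases. Zeb2 bases also reversed at a −log10 q of at least 5 (39), with lists of equal length (404) and within the gene bounds (206). Zeb1 regions reversed with lists of equal length (0.5), as did Zeb1 bases (908). The density of Zeb2 minus Zeb1 per 100 kb was -0.551 to 0.14 without 1 replicate and reversed at a −log10 q of at least 5 (0.229), with lists of equal length (0.3), merged within 500 bp (0.0798), with 100 kb around both genes (1.05) and within the gene bounds (2.92). The difference of shares called in all 4 lists stayed positive, at 7.05 to 37.5 points, and H3K4me3 regions at Zeb2 numbered 4 to 6. Calls near the labelled enhancer distance stayed at 0, except for 1 within 20 kb. Distinct intervals in place of regions, an alternative chosen after seeing the data, gave -3 at Zeb2 and -6.5 at Zeb1. With the replicate block the differences were -2.5 and -4.5 regions (p = 0.5 each by exact permutation, the smallest 2 pairs allow) and -208 and -532 bases (exact permutation p = 1 each). Same-numbered libraries did not deviate together (r = -0.022 across 11887 regions, which are not independent replicates), so the numbers are not taken as pairs. The cause of the reversals was not tested. The H3K4me2 regions called in a single library, 6 at each gene, held 3 to 10 fragments, and small counts limit the precision of each.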
